A study of Homo sapiens with 40 samples.

Results

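The genes described are 10 members of the TGF-beta, SMAD and ID system: the ligand genes TGFB1 and TGFB2, the receptor genes TGFBR1 and TGFBR2, the SMAD genes SMAD3, SMAD6 and SMAD7, and the ID genes ID1, ID2 and ID3. They were taken as all probe sets whose single gene symbol is one of the 10 names, which gave 25 of the 54675 probe sets on the array. Of these, 15 passed the filter on dim probe sets, and every gene kept at least 1. The cells were A2058, an established human melanoma line, collected 24 h after a single treatment. Of the 10 groups, 1 was the vehicle DMSO. The other 9 were BKM120 at IC30, IC50 and IC90 (max), BEZ235 at IC50, IC90 and max, and GDC0941 (also spelled GCD0941 in the labels) at IC50, IC90 and max. Each group had 4 replicates that the labels call biological, so 40 arrays in all, 1 for each replicate. BKM120 and GDC0941 are inhibitors of phosphoinositide 3-kinase (PI3K), and BEZ235 inhibits both PI3K and mTOR. By convention an IC level names the percentage of an activity that a dose blocks. The labels name no molar concentration, so a shared level name does not mean a shared concentration. All arrays came from 1 cell line at 1 time, without an added TGF-beta or BMP ligand named in the labels.

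TGF-beta ligands are secreted in a latent form, and once released they join a type II receptor (TGFBR2) to a type I receptor (TGFBR1), whose kinase then phosphorylates receptor SMADs such as SMAD3. These enter the nucleus with the common partner SMAD4 and bind target genes, among them SMAD7, which with SMAD6 holds the receptors back in negative feedback. ID proteins are helix-loop-helix proteins without a DNA-binding region. They capture E proteins, keep them off DNA, and are classic targets of the related BMP branch. In melanocytes TGF-beta restrains growth, whereas melanoma cells commonly make the ligand and keep dividing in its presence.

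The ID genes gave most of the rises described below, so the 250 bases before each of their start sites are shown, from RefSeq on GRCh38.p14, read 5′ to 3′ on the strand of the gene. All 10 genes were found in that promoter table. Capitals mark matches, on either strand, to any of 7 motifs: the SMAD box CAGAC, the palindromic SMAD-binding element GTCTAGAC, the GC-rich SMAD site GGCGCC, the forkhead site GTAAACA, the E-box CACGTG, the CCAAT box itself and the TATA box TATAAA. ID1 lies at chr20:31605039-31605288 on the plus strand, ID2 at chr2:8681806-8682055 on the plus strand and ID3 at chr1:23559502-23559751 on the minus strand.
ID1: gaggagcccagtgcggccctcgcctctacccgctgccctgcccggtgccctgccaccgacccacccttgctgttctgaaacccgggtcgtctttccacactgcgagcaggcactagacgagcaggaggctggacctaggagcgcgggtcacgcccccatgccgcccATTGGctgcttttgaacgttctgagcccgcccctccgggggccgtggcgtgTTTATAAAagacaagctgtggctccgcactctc
ID2: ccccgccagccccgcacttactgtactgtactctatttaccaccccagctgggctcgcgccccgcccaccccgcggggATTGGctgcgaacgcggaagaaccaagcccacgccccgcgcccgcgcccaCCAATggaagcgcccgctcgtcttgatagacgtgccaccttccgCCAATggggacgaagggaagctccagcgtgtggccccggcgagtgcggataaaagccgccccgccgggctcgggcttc
ID3: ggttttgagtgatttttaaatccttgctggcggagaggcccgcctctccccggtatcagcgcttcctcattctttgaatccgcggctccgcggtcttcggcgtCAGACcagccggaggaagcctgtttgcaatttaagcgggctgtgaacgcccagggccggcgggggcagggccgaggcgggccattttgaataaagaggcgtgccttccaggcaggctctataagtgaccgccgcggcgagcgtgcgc
ID1 held CCAAT 84 bases before its start and overlapping TATAAA matches on both strands 33 and 31 bases before it. ID2 held CCAAT 172, 122 and 78 bases before its start, and ID3 held CAGAC 147 bases before. Among 35116 promoters of the same length, 32% held CCAAT, 10.7% held TATAAA and 38% held CAGAC, so single matches of this kind are common. None of these 3 windows held the other 4 motifs, which says only that those letters are not there. The palindromic SMAD-binding element was found in 0.182% of promoters (64), the GC-rich SMAD site in 16.4%, the forkhead site in 2.98% and the E-box in 6.34%. Among the 10 genes SMAD6 held the palindromic element, 12 bases before its start.

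On the array side, a signal is the intensity of 1 probe set after scaling of each array to a common trimmed mean, and changes were computed as differences in log2(signal + 16), a scale that understates the change of dim probe sets. A probe set is called changed where limma's test gave a Benjamini-Hochberg adjusted p under 0.05 over the 24654 probe sets tested, and "rose", "fell", "higher" and "lower" are used only of called changes. BEZ235 IC50 replicate 3 stands apart from the rest. Its GAPDH 3′/5′ signal ratio, a sign of RNA length, was 3.44 against 1.05 to 1.26 in the other 39 arrays, and its correlation with the mean of its group was 0.948 against 0.987 to 0.997. The main results that rest on it are therefore given with 39 arrays too. The labelled line was checked against melanocyte markers: 7 of 8 listed melanocyte genes were named on the array and all 7 passed the filter, with a summed signal of 7027.1 to 7456 in DMSO and 7842.7 to 11230.2 under treatment. Of 13 markers of other cell types 5 passed the filter (KRT14, PECAM1, DCN, LUM and COL3A1). Their summed signal over all 13 was 1242.9 to 1471.2 in DMSO and lowest, 856.1 to 1114.5, at BEZ235 max. Most of that sum was the fibroblast marker LUM, with a mean DMSO signal of 1202.5 and group means of 859.9 to 1497.7. In DMSO LUM was brighter than the melanocyte genes PMEL (815.4), TYR (673.6), MLANA (265.6) and TYRP1 (127.9), though not MITF, SOX10 or S100B. The epithelial gene EPCAM (2.68), the leukocyte gene PTPRC (3.78) and the T-cell gene CD3E (1.38) had mean DMSO signals near 0. The part of these marker shifts in the results below was not tested. In bulk RNA, a change in the share of cells making a transcript and a change per cell cannot be told apart.

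The clearest movements were in 5 of the 10 genes. TGFBR2, the ligand-binding receptor, fell in 8 of 9 treatments, by modest amounts. ID2 rose at every GDC0941 level and at the lower BKM120 levels, ID1 rose only at the upper BEZ235 levels and at GDC0941 max among the 9 treatments, and ID3 rose at the upper levels of both compounds. SMAD3 rose at BKM120 IC90 (max) and fell at BKM120 IC50 and at GDC0941 IC50 and IC90. No tested probe set of SMAD6 or TGFB1 was called in any of the 9 treatments. With 39 arrays TGFBR2 fell in 7 of 9 treatments, ID3 rose in 9 of 9 and SMAD7 fell in 3 of 9.

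The counts over the 15 probe sets tested are set beside the shares of all 24654 probe sets that rose and fell in the same comparison. At BKM120 IC30, 1 rose and 1 fell, where 8.5% and 6.97% of all did (15.5% together). At BKM120 IC50, 1 rose and 2 fell (8.47% and 6.64% of all, 15.1% together). At BKM120 IC90 (max), 2 rose and none fell (15% and 15.6% of all, 30.6% together), a smaller share than among all probe sets. At BEZ235 IC50, none rose and 2 fell (18.5% and 21.8% of all, 40.3% together). At BEZ235 IC90, 2 rose and 2 fell (24.7% and 23.5% of all, 48.2% together). At BEZ235 max, 3 rose and 3 fell (26.3% and 24.8% of all, 51.1% together). The called members were a smaller share than among all probe sets at each BEZ235 level. At GDC0941 IC50, 2 rose and 3 fell (6.49% and 4.92% of all, 11.4% together). At GDC0941 IC90, 3 rose and 3 fell (11.2% and 9.31% of all, 20.5% together). At GDC0941 max, 4 rose and 2 fell (20.1% and 18.1% of all, 38.2% together). The share was above that of all probe sets at GDC0941 IC50 and IC90, where SMAD3 and ID2 each count with 2 probe sets, and near it at max. With 39 arrays 2 rose and 3 fell at BKM120 IC30, where 23.6% of all probe sets were called, 3 rose and 2 fell at BKM120 IC50 (24.6% of all), and 3 rose and 1 fell at BKM120 IC90 (max) (40.1% of all). At BEZ235 IC50 1 rose and none fell with 39 arrays (38.1% of all). The 9 comparisons share the same 4 DMSO arrays. Median changes of the 15 lay between -0.11 and 0.06 log2 units, and those of all probe sets between -0.03 and 0.01.

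**Figure D1:**
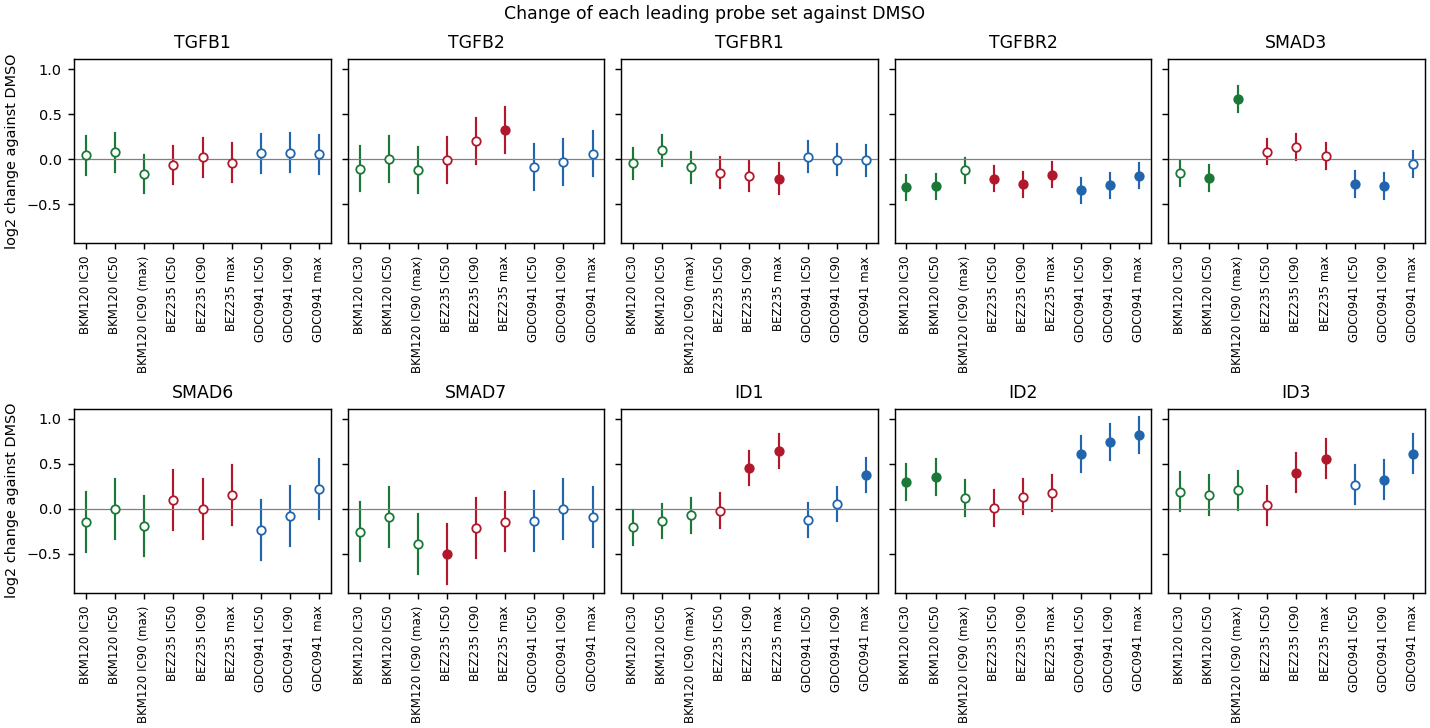
Log2 change against DMSO of the leading probe set of each of the 10 genes (vertical axis, log2(signal + 16) units) at the 9 treatments (horizontal axis), with 95% intervals from limma; filled points are called at adjusted p under 0.05. TGFBR2 sits below 0 at all 9 treatments and ID2 above 0, while SMAD3 stands out at BKM120 IC90 (max) with 0.67.

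TGFB1 encodes the founding TGF-beta ligand (NCBI gene 7040, chr19:41330323-41353922 in the RefSeq table on GRCh38.p14). Its tested probe set read 102.2, 131.6, 106.2 and 104.2 in the 4 DMSO arrays. Under treatment it ran from 85.3 to 135.7, and the arrays of all 9 treatments overlapped those of DMSO. Its changes lay between -0.17 and 0.08 log2 units (SE 0.107), with none called, and the 95% interval at BKM120 IC90 (max) was -0.38 to 0.05.

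TGFB2, another TGF-beta ligand (NCBI gene 7042, chr1:218345336-218444619), was dim throughout: 1 of its 5 probe sets passed the filter. It read 14.9, 10.8, 13.3 and 21.1 in DMSO and 20.3, 32.2, 15.3 and 24.5 at BEZ235 max. The groups overlap, and the DMSO array at 21.1 lies above 2 of the 4 treated arrays. The rise at BEZ235 max was 0.33 log2 units (SE 0.125, limma adjusted p = 0.0290). It is a fragile call, lost when any of DMSO replicates 2 and 3 or BEZ235 max replicates 2 and 4 was left out (adjusted p = 0.0679 to 0.165). The other 8 treatments gave -0.12 to 0.20 log2 units on this probe set, none called. In the fit without a filter 2 dimmer TGFB2 probe sets were called as well. One read 2.5, 5.1, 6.3 and 1.0 in DMSO and 10.7, 7.0, 15.2 and 5.2 at BEZ235 max, and was 0.36 higher there and 0.33 higher at BEZ235 IC90 (SE 0.127, adjusted p = 0.0249 and 0.0472). The other was 0.24 higher at BEZ235 IC90 (SE 0.088, adjusted p = 0.0370), and was not called at BEZ235 max (0.17, adjusted p = 0.144). The remaining dim probe sets of TGFB2 were called in no treatment. They gave 0.10 and -0.06 at BEZ235 max (limma adjusted p = 0.351 and 0.713).

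TGFBR1, the type I receptor kinase (NCBI gene 7046, chr9:99103647-99154192), was bright on its leading probe set, with DMSO signals of 939.8, 975.0, 895.6 and 1017.3. At BEZ235 max it read 772.7, 897.1, 797.6 and 813.6, so that only the array at 897.1 reached into the DMSO range. It fell there by 0.22 log2 units (SE 0.084, limma adjusted p = 0.0280). The call was lost without any of DMSO replicates 2 and 4 or BEZ235 max replicates 1, 3 and 4. At BEZ235 IC90 the change was -0.19 log2 units (adjusted p = 0.0627), and with 39 arrays it fell there too (adjusted p = 0.0406). No BKM120 or GDC0941 level was called, with changes of -0.09 to 0.10. A dim probe set of the gene under the filter read 2.5, 1.4, 5.2 and 5.4 in DMSO and 20.3, 8.5, 15.8 and 10.9 at BKM120 IC90 (max). In the fit without a filter, over 41091 probe sets, it was 0.60 log2 units higher there (SE 0.097, adjusted p = 1.25e-05). The bright probe set read 877.3, 874.0, 943.8 and 886.7 in the same arrays, a change of -0.09 that was not called, so that call rests on the dim probe set. A further dim probe set of TGFBR1 read 7.1, 11.2, 7.1 and 10.6 in DMSO and 0.8, 6.3, 1.6 and 2.6 at BEZ235 IC90. It was lower there in the fit without a filter, at -0.41 (SE 0.112, adjusted p = 0.00385).

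TGFBR2, the type II receptor that first binds the ligand (NCBI gene 7048, chr3:30606356-30694142), fell in 8 of the 9 treatments. Its leading probe set read 632.9, 598.9, 591.2 and 595.9 in DMSO. At BKM120 IC30 it read 450.1, 494.5, 488.1 and 504.5, and at GDC0941 IC50 494.4, 437.9, 496.8 and 463.4. At BEZ235 IC90 it read 487.6, 463.1, 533.1 and 499.2. Every array of these 3 treatments lay below every DMSO array, and the same held in 8 of the 9 treatments. The exception was BKM120 IC90 (max), at 538.3, 537.3, 621.5 and 519.7, where replicate 3 lay inside the DMSO range.

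The falls in TGFBR2 were 0.31 and 0.30 log2 units at BKM120 IC30 and IC50 (limma adjusted p = 0.00122 and 0.00166), with SE 0.068 throughout. For GDC0941 they were 0.35, 0.29 and 0.18 from IC50 to max (adjusted p = 4.93e-04, 0.00164 and 0.0320). For BEZ235 they were 0.22, 0.28 and 0.17 (adjusted p = 0.0107, 8.47e-04 and 0.0321). In signal, the mean went from 604.7 ± 19.0 (SD, n = 4) in DMSO to 473.1 ± 28.0 at GDC0941 IC50, the lowest group. BKM120 IC90 (max) was not called at -0.13 (adjusted p = 0.168). With 39 arrays BEZ235 IC50 was no longer called (-0.13, adjusted p = 0.0830), which leaves 7 of 9. The calls at BEZ235 max and GDC0941 max were each lost on leaving out some single arrays, DMSO replicate 1 among them (adjusted p = 0.0906 and 0.0918). A dim second probe set of TGFBR2, under the filter, had a mean DMSO signal of 9.6. In the fit without a filter it was called in no treatment, with changes of -0.16 to 0.02. Averaging the gene's probe sets gave -0.08 at GDC0941 max, not called (limma adjusted p = 0.243).

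**Figure D2:**
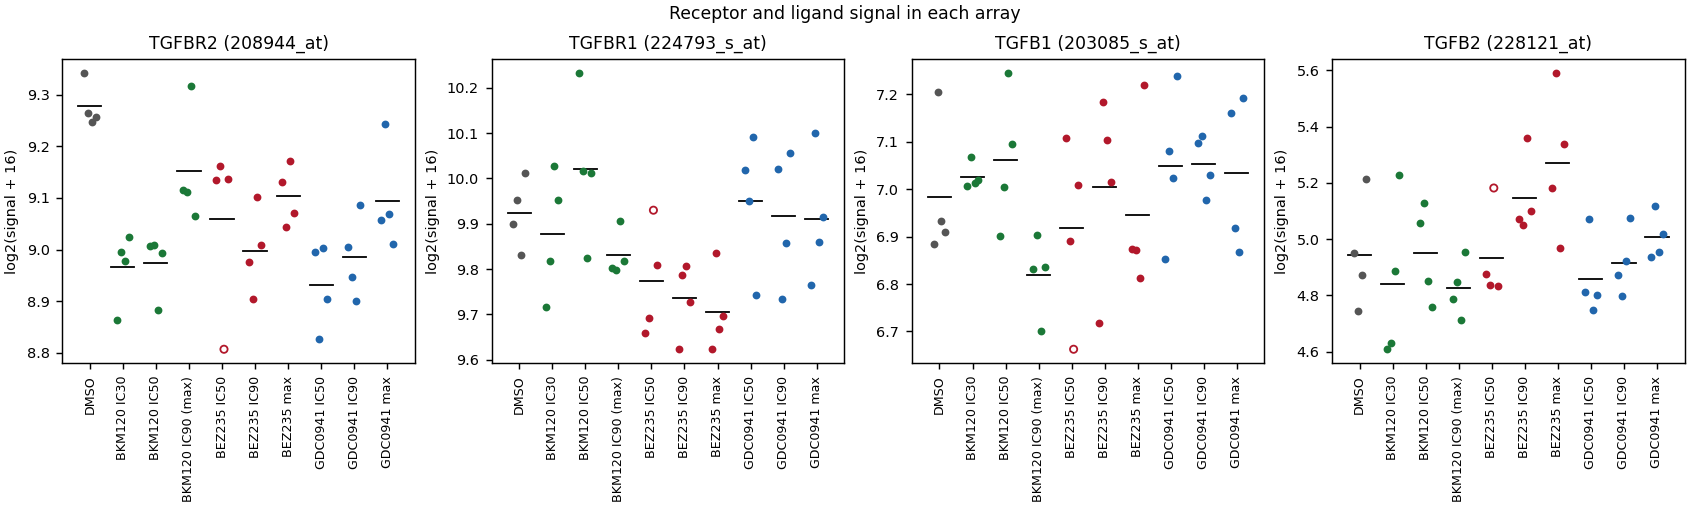
Signal of TGFBR2, TGFBR1, TGFB1 and TGFB2 in each of the 40 arrays (vertical axis, log2(signal + 16)) by group (horizontal axis); black lines are group means of 4 arrays and the open circle is BEZ235 IC50 replicate 3. For TGFBR2 the 4 DMSO arrays lie above the arrays of all groups but BKM120 IC90 (max), while TGFB1 and TGFB2 overlap across groups.

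SMAD3, the receptor SMAD that carries the TGF-beta signal into the nucleus (NCBI gene 4088, chr15:67065602-67195169), gave the largest single change of the SMAD genes. Its leading probe set read 710.7, 588.2, 626.7 and 610.0 in DMSO and 994.3, 983.2, 1109.8 and 973.0 at BKM120 IC90 (max). It read 544.8, 574.3, 583.9 and 555.5 at BKM120 IC30 and 546.9, 546.9, 528.9 and 557.1 at BKM120 IC50. All 4 arrays of the highest BKM120 level lay above every other array of the series, and all 8 of the lower levels below every DMSO array. The change at BKM120 IC90 (max) was 0.67 log2 units (SE 0.071, limma adjusted p = 1.81e-09). At BKM120 IC50 it was -0.21 (adjusted p = 0.0390), a call lost on leaving out any of DMSO replicates 1, 3 and 4 or any BKM120 IC50 array. BKM120 IC30 gave -0.16, not called.

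Under GDC0941 the same SMAD3 probe set read 558.0, 553.0, 527.3 and 444.4 at IC50, and 514.7, 481.2, 583.0 and 474.8 at IC90. At GDC0941 max it read 607.0, 625.0, 609.1 and 587.6. It fell by 0.28 at IC50 and by 0.30 at IC90 (limma adjusted p = 0.00669 and 0.00197), and was not called at max (-0.06, 95% interval -0.20 to 0.09). Without GDC0941 IC50 replicate 4, the array at 444.4, the IC50 change was -0.21 (adjusted p = 0.0615). BEZ235 gave 0.08, 0.13 and 0.03 from IC50 to max, none called, with arrays at 581.2 to 729.7. With 39 arrays BEZ235 IC50 gave 0.15 (adjusted p = 0.0768).

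A second SMAD3 probe set also rose at BKM120 IC90 (max) and fell at GDC0941 IC50 and IC90. Unlike the first it was not called at BKM120 IC50 (-0.14), and it fell at BEZ235 IC90, BEZ235 max and GDC0941 max. It read 102.2, 109.8, 108.6 and 131.4 in DMSO and 158.1, 156.7, 152.1 and 161.1 at BKM120 IC90 (max), a rise of 0.43 log2 units (SE 0.088, limma adjusted p = 2.33e-04). At BEZ235 max it read 80.7, 83.1, 76.8 and 79.4, and at GDC0941 max 85.9, 76.3, 70.5 and 73.3. All arrays of both groups lay below DMSO, unlike those of the leading probe set. The falls were 0.42 at BEZ235 max, 0.48 at GDC0941 max, 0.28 at BEZ235 IC90 and 0.52 at GDC0941 IC90 (adjusted p = 1.20e-04, 3.74e-05, 0.00821 and 3.16e-05). Over the 10 group means the 2 probe sets had r = 0.777, a description of means that share arrays. A further, dim probe set of the gene was called in no treatment (0.31 at BKM120 IC90 (max)). The direction for SMAD3 at BEZ235 max therefore rests on the probe set: averaging the gene's probe sets gave -0.16 (adjusted p = 0.0159).

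SMAD6, an inhibitory SMAD best known for the BMP branch (NCBI gene 4091, chr15:66702236-66782849, close to SMAD3 on the same chromosome), was dim on all 4 of its probe sets. The leading one read 31.2, 43.0, 37.4 and 23.4 in DMSO and 19.5 to 62.3 under treatment. All 9 treatments overlapped DMSO. Changes were -0.23 to 0.22 log2 units (SE 0.164), and neither this nor the other 2 tested probe sets of the gene was called in any treatment. The remaining one, under the filter, read 1.7, 3.0, 4.5 and 4.1 in DMSO and 7.1, 10.0, 4.9 and 8.5 at GDC0941 max. In the fit without a filter it was 0.29 higher there (SE 0.075, limma adjusted p = 0.00359).

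SMAD7, the inhibitory SMAD that TGF-beta itself induces (NCBI gene 4092, chr18:48919853-48950965), has 1 probe set. It read 236.3, 243.0, 220.0 and 245.7 in DMSO. At BEZ235 IC50 it read 194.2, 213.0, 73.2 and 214.2, and at BKM120 IC90 (max) 184.2, 171.7, 185.0 and 163.5. The array at 73.2 is the one that stands apart in RNA length, whereas the BKM120 arrays are tightly grouped and all below DMSO. The fall at BEZ235 IC50 was 0.51 log2 units (SE 0.164, limma adjusted p = 0.0129). With 39 arrays it was -0.18 and not called (adjusted p = 0.157).

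Leaving that array out also lowered the SE of SMAD7 to 0.091 in the other comparisons. SMAD7 then fell by 0.39 at BKM120 IC90 (max) (adjusted p = 5.99e-04), by 0.25 at BKM120 IC30 (adjusted p = 0.0380) and by 0.22 at BEZ235 IC90 (adjusted p = 0.0412). At BKM120 IC30 the arrays read 180.5, 192.2, 192.5 and 218.2, all below DMSO. GDC0941 gave -0.14, -0.0040 and -0.09 from IC50 to max, none called, and the max arrays were spread widely at 175.9, 278.8, 193.4 and 249.0.

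**Figure D3:**
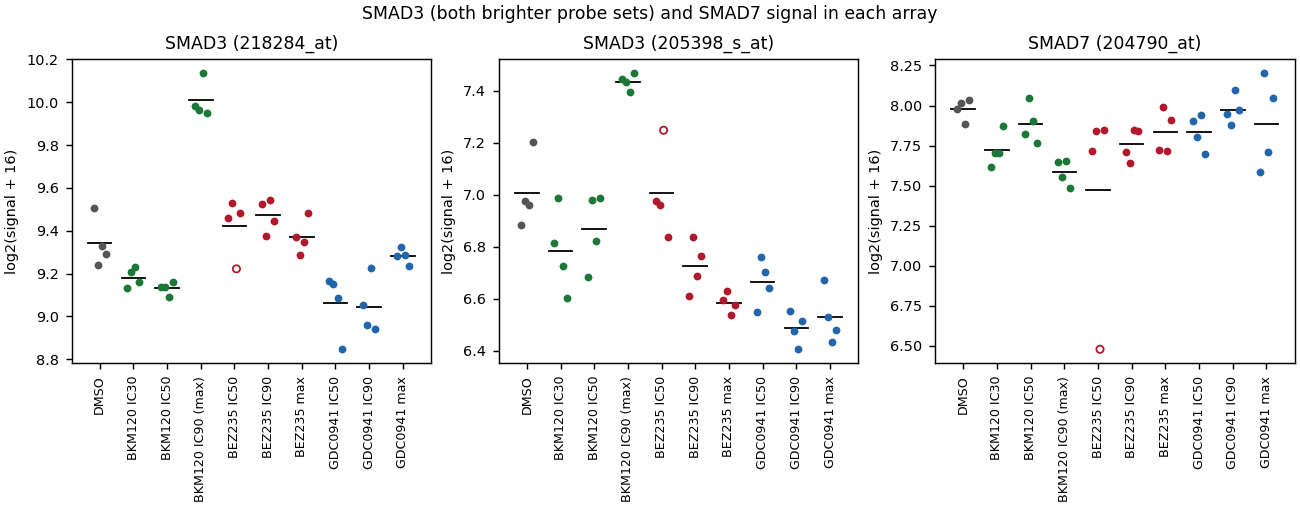
Signal of SMAD3 on its 2 brighter probe sets and of SMAD7 in each of the 40 arrays (vertical axis, log2(signal + 16)) by group (horizontal axis); black lines are group means of 4 arrays and the open circle is BEZ235 IC50 replicate 3. Both SMAD3 panels peak at BKM120 IC90 (max), only on the second do all arrays of BEZ235 max and GDC0941 max lie below DMSO, and the open circle at 6.48 lies far below every other SMAD7 array.

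ID1, an ID protein strongly induced by BMP signals in many cells (NCBI gene 3397, chr20:31605289-31606510), read 105.3, 97.4, 92.1 and 111.6 in DMSO. It read 157.2, 150.8, 120.0 and 153.9 at BEZ235 IC90 and 182.9, 158.7, 165.4 and 162.7 at BEZ235 max. At GDC0941 max it read 140.8, 140.0, 136.9 and 128.1. All 12 of these arrays lay above every DMSO array, whereas the arrays at BEZ235 IC50 (96.8, 99.9, 109.9 and 92.9) lay within the DMSO range. ID1 rose by 0.45 at BEZ235 IC90, 0.64 at BEZ235 max and 0.38 at GDC0941 max (SE 0.094, limma adjusted p = 1.16e-04, 3.96e-07 and 0.00141). The mean signal went from 101.6 ± 8.6 (SD, n = 4) in DMSO to 167.4 ± 10.7 at BEZ235 max. The other 6 treatments gave -0.21 to 0.06, none called, all 3 BKM120 levels among them.

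ID2 (NCBI gene 3398, chr2:8682056-8684461) showed a different order of compounds. Its leading probe set read 83.1, 76.0, 68.1 and 77.4 in DMSO. Under GDC0941 it read 122.3, 133.0, 108.1 and 136.2 at IC50, 136.2, 133.1, 158.4 and 126.2 at IC90, and 151.1, 141.7, 153.6 and 139.7 at max. All 12 GDC0941 arrays lay above every DMSO array, and the 4 at BEZ235 IC50 (98.6, 77.9, 57.3 and 76.7) were spread around it. ID2 rose by 0.61, 0.74 and 0.82 log2 units at the 3 GDC0941 levels (SE 0.098, limma adjusted p = 2.35e-05, 3.67e-07 and 1.59e-08). The mean signal was 76.2 ± 6.2 (SD, n = 4) in DMSO and 146.5 ± 6.9 at GDC0941 max.

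Under BKM120, ID2 read 97.4, 89.2, 94.7 and 107.4 at IC30 and 104.2, 97.6, 113.2 and 91.1 at IC50. It rose by 0.30 and 0.35 (limma adjusted p = 0.0331 and 0.0115), and all 8 arrays lay above DMSO. The IC30 call was lost on leaving out any of DMSO replicates 2 to 4 or BKM120 IC30 replicates 1, 3 and 4, and the IC50 call without BKM120 IC50 replicate 3 (adjusted p = 0.0524). At BKM120 IC90 (max) the change was 0.12, and at the 3 BEZ235 levels 0.01, 0.13 and 0.18, none called. With 39 arrays BEZ235 IC50 gave 0.12, also not called. The second ID2 probe set rose by 0.60, 0.63 and 0.90 at the 3 GDC0941 levels (SE 0.193, adjusted p = 0.0347, 0.0156 and 2.65e-04). It was called in no BKM120 or BEZ235 comparison with DMSO. Over the 10 group means the 2 probe sets had r = 0.950. A further probe set names ID2B together with ID2 and was not used.

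ID3 (NCBI gene 3399, chr1:23557926-23559501) rose at the upper levels of BEZ235 and GDC0941. Its probe set read 884.0, 845.6, 888.7 and 927.9 in DMSO. At BEZ235 max it read 1339.9, 1356.4, 1238.8 and 1311.2, and at GDC0941 max 1329.9, 1303.5, 1491.2 and 1332.4. At BKM120 IC90 (max) it read 1036.2, 991.8, 1020.8 and 1051.1. Every array of these groups exceeded every DMSO array. ID3 rose by 0.56 at BEZ235 max, 0.40 at BEZ235 IC90, 0.61 at GDC0941 max and 0.32 at GDC0941 IC90 (SE 0.107), and in no other treatment with all 40 arrays. The first 3 had limma adjusted p = 4.06e-05, 0.00233 and 1.83e-05. The GDC0941 IC90 call (limma adjusted p = 0.0289) was lost on leaving out any of DMSO replicates 1 to 3 or GDC0941 IC90 replicates 1, 2 and 4.

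The wide error of ID3 came with BEZ235 IC50, whose arrays read 1057.3, 1064.7, 562.1 and 1081.5. The low one is the array that stands apart, and the other 3 lay above DMSO. With 39 arrays the SE was 0.054 (0.058 at BEZ235 IC50) and ID3 rose in 9 of 9 treatments. Its rises then were 0.19, 0.15 and 0.21 for BKM120 (limma adjusted p = 0.00941, 0.0357 and 0.00210). BEZ235 IC50 gave 0.26 (adjusted p = 3.74e-04), and GDC0941 IC50 0.27 (adjusted p = 3.69e-04).

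**Figure D4:**
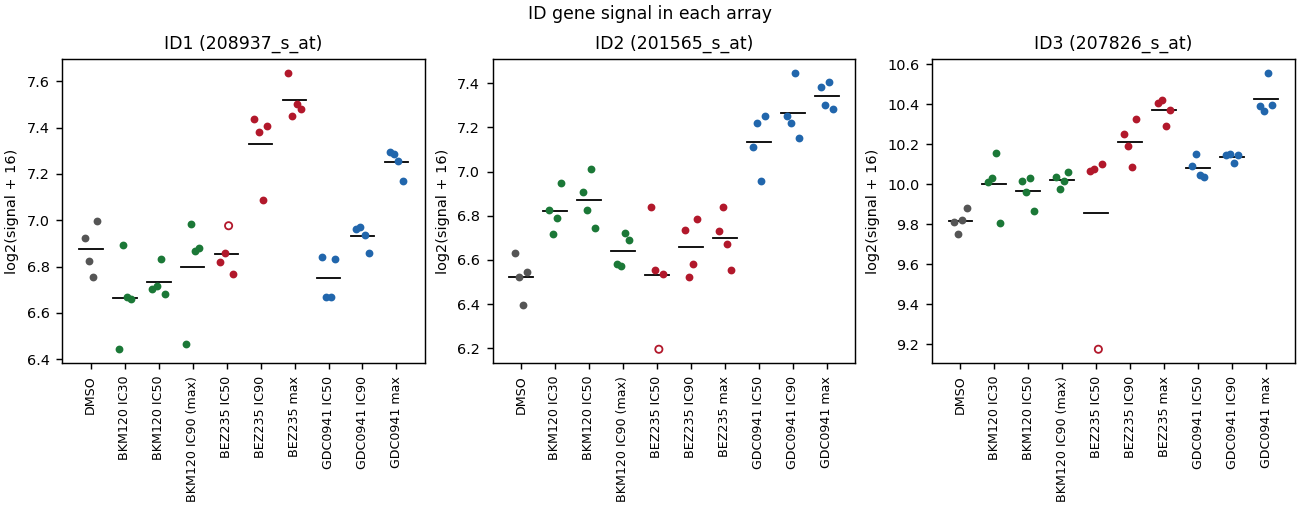
Signal of ID1, ID2 and ID3 in each of the 40 arrays (vertical axis, log2(signal + 16)) by group (horizontal axis); black lines are group means of 4 arrays and the open circle is BEZ235 IC50 replicate 3. ID2 is highest in the GDC0941 groups, ID1 at BEZ235 IC90, BEZ235 max and GDC0941 max, and for ID3 the open circle at 9.18 is the lowest array of all.

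With the groups of each gene put in order of mean log2(signal + 16), few neighbours were separated. For SMAD3 the order from lowest to highest was GDC0941 IC90 (9.04), GDC0941 IC50 (9.06), BKM120 IC50 (9.13), BKM120 IC30 (9.18), GDC0941 max (9.28), DMSO (9.34), BEZ235 max (9.37), BEZ235 IC50 (9.42), BEZ235 IC90 (9.47) and BKM120 IC90 (max) (10.01). Arrays of neighbouring groups overlapped in 7 of 9 steps for SMAD3 and for ID1, and in 9 of 9 for each of the other 8 genes.

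The 3 compounds were compared directly at level names they share, in 7 comparisons of 4 arrays against 4. For BKM120, IC90 (max) was set against the IC90 of the other compounds and not against their max. BKM120 and GDC0941 at IC50 gave no called member (0.146% of all probe sets were higher and 0.0568% lower, 0.203% together). The ID2 difference there was -0.26 (95% interval -0.46 to -0.06, limma adjusted p = 0.234), and that of SMAD3 0.07 (95% interval -0.07 to 0.21). At IC90 the same 2 compounds had 3 probe sets higher under BKM120 and 2 lower (12% and 14.4% of all, 26.4% together). SMAD3 was 0.96 log2 units higher under BKM120 (95% interval 0.82 to 1.11, adjusted p = 1.90e-13), and ID2 was lower, at -0.62 (95% interval -0.82 to -0.43, adjusted p = 3.99e-06). ID1 differed by -0.13 (95% interval -0.32 to 0.06), not called.

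BKM120 against BEZ235 at IC50 had 3 members higher and 1 lower (15% and 11.7% of all, 26.7% together). With 39 arrays the balance turned to 1 higher and 2 lower (25.5% of all called). At IC90 it had 2 higher and 2 lower (18.4% and 20.7% of all, 39.1% together). SMAD3 was lower under BKM120 at IC50, at -0.29 (limma adjusted p = 0.00226), and higher at IC90, at 0.54 (95% interval 0.39 to 0.68, adjusted p = 1.01e-07). With 39 arrays the IC50 difference was -0.36 (adjusted p = 1.14e-04). ID1 was lower under BKM120 at IC90, at -0.53 (95% interval -0.72 to -0.34, adjusted p = 1.86e-05). ID2 was higher under BKM120 at IC50, at 0.34 (adjusted p = 0.00869), and with 39 arrays the difference was 0.23 and not called (adjusted p = 0.0582).

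BEZ235 against GDC0941 had 2 members higher and 2 lower at IC50 (13.1% and 15.9% of all, 29% together). It had 4 higher and 2 lower at IC90 (18.7% and 18.2% of all, 36.9% together), and 1 higher and 2 lower at max (15.2% and 15.7% of all, 30.9% together). ID2 was lower under BEZ235 at all 3 levels, at -0.60, -0.61 and -0.64 (SE 0.098, limma adjusted p = 1.34e-05, 4.71e-06 and 2.20e-06). With 39 arrays the IC50 difference was -0.49 (adjusted p = 7.22e-05). ID1 was higher under BEZ235 at IC90 and max, at 0.40 and 0.27 (adjusted p = 8.75e-04 and 0.0273). SMAD3 was higher at IC50 and IC90, at 0.36 and 0.43 (adjusted p = 1.84e-04 and 7.51e-06), and differed by 0.09 at max (95% interval -0.05 to 0.23), not called. ID3 was called in none of the 7 comparisons between compounds with all 40 arrays, and with 39 it was lower under BKM120 than under BEZ235 at IC90 (-0.19, adjusted p = 0.00336). At max its difference was -0.05 (95% interval -0.27 to 0.16). The mean log2 ID3 signal was 10.02 at BKM120 IC90 (max), 10.37 at BEZ235 max and 10.43 at GDC0941 max. Whether BKM120 IC90 (max) differed from those 2 max groups was not tested.

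Between the highest and the lowest level of a compound, BKM120 had 4 members higher at IC90 (max) and none lower (14% and 15.8% of all, 29.8% together). BEZ235 had 3 higher and 1 lower at max against IC50 (18.3% and 14.4% of all, 32.7% together). GDC0941 had 4 higher and none lower (13.1% and 11.8% of all, 24.9% together). SMAD3 was 0.83 higher for BKM120 (95% interval 0.68 to 0.97, limma adjusted p = 8.10e-12) and 0.22 higher for GDC0941 (adjusted p = 0.0184) on its leading probe set. The second SMAD3 probe set went the same way for BKM120, from a mean of 6.78 at IC30 to 7.43 at IC90 (max). For GDC0941 it went the other way, from 6.66 at IC50 to 6.53 at max, not called. TGFBR2 was 0.19 higher at BKM120 IC90 (max) than at IC30 (adjusted p = 0.0350). ID1 was higher by 0.66 for BEZ235 and by 0.50 for GDC0941 (adjusted p = 7.83e-07 and 1.04e-04). ID3 was higher by 0.52 for BEZ235, or 0.29 with 39 arrays, and by 0.35 for GDC0941 (adjusted p = 0.0151 for the last).

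With 39 arrays some uncalled differences of other members were called. Among them TGFBR2 was higher under BKM120 at IC90 than under BEZ235 (0.15, limma adjusted p = 0.0230) and GDC0941 (0.17, adjusted p = 0.0190), and SMAD7 was lower under BKM120 than under GDC0941 at IC90 (-0.39, adjusted p = 7.53e-04).

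The step from IC50 to IC90 was then compared between compounds by an interaction contrast. For SMAD3 the BKM120 step exceeded that of BEZ235 by 0.83 (SE 0.0997, limma adjusted p = 8.69e-08) and that of GDC0941 by 0.90 (SE 0.0997, adjusted p = 1.72e-08). The second SMAD3 probe set gave 0.85 and 0.74 in the same contrasts (adjusted p = 3.36e-06 and 3.03e-05). The ID1 step of BKM120 was smaller than that of BEZ235, at -0.41 (SE 0.132, adjusted p = 0.0243), and against GDC0941 the contrast was -0.11 (95% interval -0.38 to 0.16, adjusted p = 0.638). With 39 arrays 3 further contrasts were called: TGFBR2 against BEZ235 (0.33, adjusted p = 0.00316), SMAD7 against GDC0941 (-0.44, adjusted p = 0.0105) and ID2 against GDC0941 (-0.36, adjusted p = 0.0217).

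Among themselves, the genes did not share 1 pattern over the 10 group means. ID1 and ID3 had r = 0.784 and ID1 and ID2 r = 0.0208, while ID1 and TGFB2 had r = 0.926 and SMAD3 and TGFB1 r = -0.923, the last with TGFB1 uncalled in every treatment. For the genes that spanned at least 0.8 log2 units between groups, a limit set after the values were seen because none reached 1, the most similar patterns among 5978 candidate probe sets were as follows. SMAD3 was most like MICAL3 (r = 0.963), IQGAP3 (0.958) and DZIP3 (0.958). ID1 was most like ARFGEF3 (0.977), LINC00665 (0.972) and IL7 (0.971), and ID2 like ARHGEF6 (0.925), ARHGAP29 (0.925) and GNAZ (0.924). These are descriptions over 10 means that come from the same arrays.

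Around the 10 genes, a list of 90 other genes of the TGF-beta and BMP system was followed, of which 84 were named on the array and 67 passed the filter. At BKM120 IC90 (max) 6 rose and 11 fell, where 32.8% of the leading probe sets of all 12402 genes compared were called. At BEZ235 max 16 rose and 21 fell (55.9% of all), and at GDC0941 max 12 rose and 12 fell (41.8% of all). The median change of the 67 was 0.01, 0.03 and 0.05 log2 units at these levels. At the lower levels 6 rose and 12 fell at BKM120 IC30 (18.9% of all), 7 rose and 11 fell at BKM120 IC50 (17.7% of all) and 5 rose and 11 fell at GDC0941 IC50 (13.9% of all). The share called in the list was above that of all genes at these 3 treatments. It was below it at BKM120 IC90 (max) and GDC0941 max, and near it at BEZ235 max. At BEZ235 IC50 15 rose and 12 fell (43.1% of all), at BEZ235 IC90 15 rose and 20 fell (52.9% of all), and at GDC0941 IC90 7 rose and 9 fell (23.2% of all).

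Of the ligand genes, TGFB3, the remaining TGF-beta ligand gene, fell at all 3 highest levels, by 0.76 at BKM120 IC90 (max), 0.56 at BEZ235 max and 0.73 at GDC0941 max (SE 0.138). INHBA, the activin A subunit, fell at GDC0941 max by 0.51 and read 0.03 and 0.17 at the other highest levels, not called. It also fell by 0.67 and 0.55 at BKM120 IC30 and IC50, by 0.38 at BEZ235 IC90, and by 0.72 and 0.64 at GDC0941 IC50 and IC90 (SE 0.140). Of the 10 receptor genes tested, 1 rose and 3 fell at BKM120 IC90 (max) (32.8% of all genes called). At BEZ235 max 4 rose and 4 fell (55.9% of all), and at GDC0941 max 3 rose and 3 fell (41.8% of all). The activin type II receptor ACVR2B rose by 0.41, 1.22 and 0.74 in that order of compounds (SE 0.086). The co-receptor TGFBR3, betaglycan, fell by 0.69, 1.17 and 0.43 (SE 0.095), and the type I receptor ACVR1C by 0.39, 1.08 and 0.37 (SE 0.127). ACVRL1, a type I receptor best known from endothelium, rose by 0.57 at BEZ235 max and 0.65 at GDC0941 max (SE 0.174). It was dim, with a DMSO mean of 4.55 log2 units, under the limit of 4.69 that the filter set on the mean over all arrays.

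Of the genes listed for latent TGF-beta binding and activation, ITGB8, an integrin subunit that activates latent TGF-beta, fell by 0.63, 1.33 and 0.82 at the same 3 levels (SE 0.155). LTBP2, listed by its family name, rose by 0.70, 0.79 and 0.60 (SE 0.153), while LTBP1 fell by 0.76 at BEZ235 max and by 0.33 at GDC0941 max. LTBP4 rose by 0.66 at BEZ235 max and gave 0.22 at BKM120 IC90 (max) and 0.27 at GDC0941 max, not called. Among inhibitors and co-repressors 4 of 15 rose and 1 fell at BEZ235 max, a smaller share than the 55.9% called among all genes. None rose and 1 fell at BKM120 IC90 (max) (32.8% of all), and 1 rose and 1 fell at GDC0941 max (41.8% of all). At BEZ235 max SKI rose by 0.64 and PMEPA1, a feedback inhibitor that TGF-beta induces, by 0.53. PMEPA1 fell at BKM120 IC50 by 0.15 and at GDC0941 IC50 by 0.22 (SE 0.045). Of the other SMAD genes, SMAD1, which carries BMP signals, rose by 0.21 at BEZ235 max and 0.32 at GDC0941 max, and SMAD5 fell by 0.42 at BEZ235 max.

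Listed TGF-beta target genes moved both ways: 3 of 15 rose and 2 fell at BKM120 IC90 (max), where 32.8% of all genes were called. At BEZ235 max 3 rose and 5 fell (55.9% of all), and at GDC0941 max 3 rose and 4 fell (41.8% of all). At these 3 highest levels the shares were near those of all genes. Below them, 1 rose and 5 fell at BKM120 IC30 (18.9% of all), and 2 and 5 at BKM120 IC50 (17.7% of all). For BEZ235, 4 rose and 5 fell at IC50 (43.1% of all), and 4 and 8 at IC90 (52.9% of all). For GDC0941, 1 rose and 5 fell at IC50 (13.9% of all), and 1 and 4 at IC90 (23.2% of all). In each of these lower levels the share called was above that of all genes. KLF10, an early TGF-beta response gene, rose by 1.01 at BEZ235 max and 0.28 at BKM120 IC90 (max), and fell by 0.51 at BKM120 IC30 (SE 0.090). TAGLN, an actin-binding protein, fell by 1.16 at BEZ235 max and 0.77 at GDC0941 max and read 0.23 at BKM120 IC90 (max), not called. It also fell by 0.77 and 0.69 at BKM120 IC30 and IC50, and in each of the other BEZ235 and GDC0941 treatments. COL1A1, a fibrillar collagen, fell by 0.88 at BEZ235 max. BHLHE40 fell by 0.82, 0.63 and 0.37 at the 3 highest levels (SE 0.078). It also fell by 0.24 and 0.32 at BEZ235 IC50 and IC90, but rose by 0.22 at BKM120 IC30. Of the 7 BMP target genes tested, ATOH8 rose by 0.52 at BKM120 IC90 (max) and fell by 0.72 at BEZ235 max. ATOH8 also rose at BKM120 IC30 (0.48), BKM120 IC50 (0.47), BEZ235 IC50 (0.43) and GDC0941 IC50 (0.51), so its direction differed between BEZ235 IC50 and max. Also on that list, ID4, the remaining ID family gene, fell by 0.22 at BEZ235 max and rose by 0.34 at GDC0941 max. ID4 rose too at BKM120 IC30 (0.29), BKM120 IC50 (0.38), GDC0941 IC50 (0.23) and GDC0941 IC90 (0.40), and was called in no other treatment. Of the E-protein genes whose products bind ID proteins, TCF3 rose by 0.23 at BEZ235 max and TCF12 by 0.15 at GDC0941 max.

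**Figure D5:**
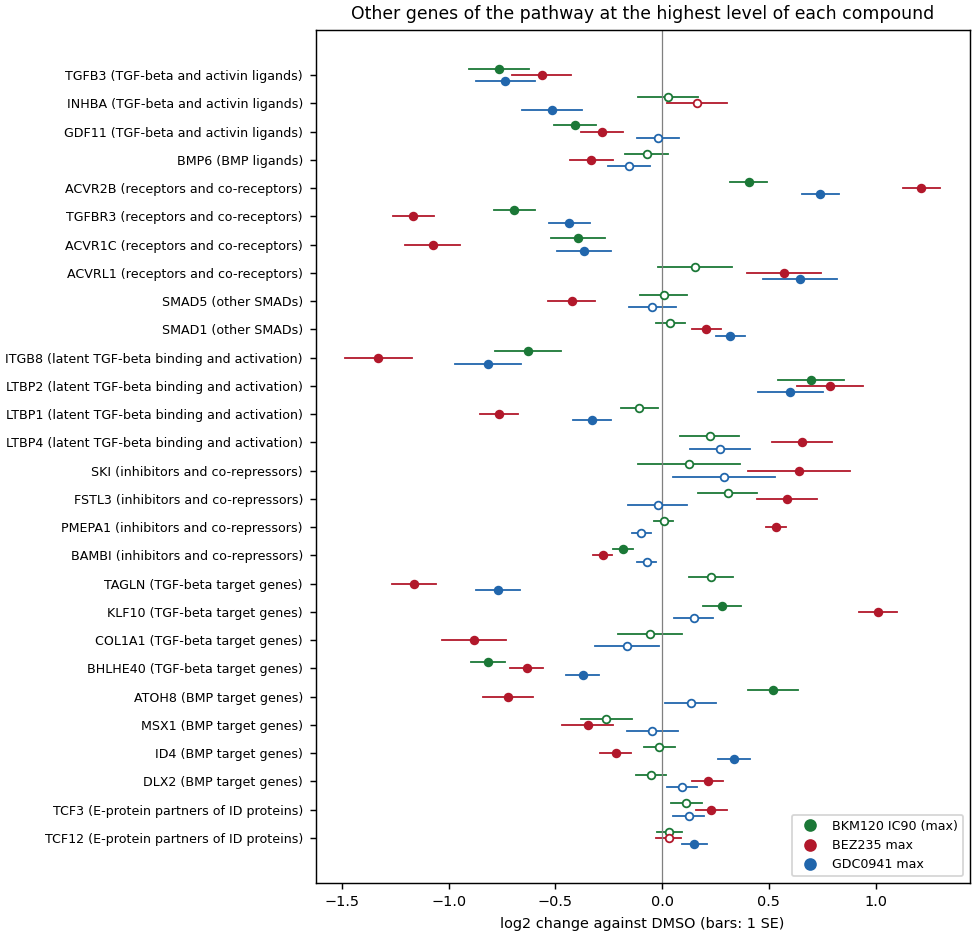
Log2 change against DMSO (horizontal axis, log2(signal + 16) units) of 28 named genes of the TGF-beta and BMP system (vertical axis) at BKM120 IC90 (max), BEZ235 max and GDC0941 max; bars are 1 SE from limma and filled points are called. ITGB8, TGFBR3, ACVR1C and TGFB3 lie below 0 at all 3 and ACVR2B and LTBP2 above 0, while KLF10 reaches 1.01 and TAGLN -1.16 at BEZ235 max.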

How the data were processed

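RNA (50 ng, amplified) of each sample was hybridised to 1 one-colour Affymetrix array, per the labels' protocols. The deposited values are MAS5 intensities on a linear scale, per the submitters' processing notes, and the array's scaling equalises the trimmed mean between arrays (checked on the deposited intensities with 2% trimmed from each end). The array build is not given in the sources used here. Arrays have no read depth, and the 4 replicates per group limit the precision. The labels call the replicates biological without naming separate cultures, so p-values measure the spread between these samples, which may be partly technical.

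Probe sets were named through a table of the platform's annotation (41091 with 1 symbol, 1801 with several, 11721 with none, 62 controls). Tested were 24654 probe sets of 12518 genes, with 1 symbol and a mean log2(signal + 16) over all arrays above the 40th percentile (4.69, a signal of 9.76). limma 3.58.1 in R 4.3.3 fitted a mean per group over 40 arrays (30 residual degrees of freedom, trend on intensity), for 19 comparisons and 2 interaction contrasts, with Benjamini-Hochberg adjustment over all probe sets tested within each. Leading probe sets are those with the highest mean log2 signal, taking an _x_at one only where no other exists. The named genes are the 10 members, the 3 probe sets most like each member that spans enough, and the genes of the wider list with the largest changes in each role. The members and lists were chosen with earlier results of these data known. Replicate numbers were checked for pairing: deviations of same-numbered arrays from their group means correlated at -0.188 to 0.266 with DMSO, and in no comparison did all 4 pairs exceed 0.1, so no pairing was used. Alternatives were other pseudocounts, quantile normalization, other filters, array weights, gene-level values, fits on 2 groups, 39 arrays and single arrays left out. The method was tested on simulated data for GDC0941 max against DMSO. It called 28 of 100 changes of 0.3 log2 units and 85 of 100 changes of 0.6, with 3 false calls among 24454 unchanged probe sets. In the data 38.2% of probe sets were called in that comparison, far more than were changed in the simulation. The simulated rates therefore need not hold for the reported tests. Of the wider list, 6 genes without a probe set named for them were not analysed here.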

Additional observations from a re-analysis of the deposited data

Results flagged for a closer look

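Dixon's gap test singled out an array in 13 of the 100 sets of 4 arrays (10 genes by 10 groups), where chance alone flags about 1 in 20. In 4 of them the array was BEZ235 IC50 replicate 3, the one with the high 3′/5′ ratio: SMAD7 at 6.48 on the log2(signal + 16) scale (signal 73.2 against 194.2 to 214.2), TGFBR2 at 8.81 (431.9 against 545.8 to 556.5), ID3 at 9.18 (562.1 against 1057.3 to 1081.5) and TGFB2 at 5.18 (20.3 against 13.4 in the nearest other). SMAD7, TGFBR2 and ID3 were low in that array and TGFB2 was high.

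SMAD3 was at 10.14 in BKM120 IC90 (max) replicate 3 (1109.8 against 973.0 to 994.3). ID3 stood apart in GDC0941 IC90 replicate 3 at 10.11 (1087.9 against 1116.5 to 1120.3) and in GDC0941 max replicate 3 at 10.56 (1491.2 against 1303.5 to 1332.4). ID1 was at 7.09 in BEZ235 IC90 replicate 3 (120.0 against 150.8 to 157.2), an array where TGFB2 was also apart at 5.36 (25.1 against 17.1 to 18.3). TGFBR2 was at 8.88 in BKM120 IC50 replicate 3 (456.0 against 493.6 to 499.4). TGFB1 stood apart in DMSO replicate 2 at 7.21 (131.6 against 102.2 to 106.2) and in BEZ235 max replicate 4 at 7.22 (133.1 against 96.4 to 101.3). SMAD6 was at 5.97 in BEZ235 max replicate 1 (46.8 against 35.9 to 36.1).

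The step from IC50 to IC90 differed between compounds by limma's interaction test in 3 cases. For SMAD3 the BKM120 step minus the BEZ235 step was 0.83 log2 units and minus the GDC0941 step 0.90. For ID1 the BKM120 step minus the BEZ235 step was -0.41.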

How the results depend on the processing

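Counts of called member probe sets were recomputed in all 19 comparisons. Pseudocounts of 1 and 64, quantile normalization, a filter at the 60th percentile and the replicate block left each count within 1.5 times of the reported one. With the replicate block, 6 members were called at GDC0941 max and 7 at GDC0941 IC90, against 6 and 6 without it.
Without a filter, 1 member was called at BKM120 IC30 (from 2) and 7 at BEZ235 IC90 (from 4). With array weights the counts were 5 at BKM120 IC30 (from 2), 5 at IC50 (from 3), 6 at IC90 (max) (from 2) and 8 for BKM120 against GDC0941 at IC90 (from 5), and of the wider list 26 at BKM120 IC90 (max) (from 17) and 25 at GDC0941 IC90 (from 16). With 39 arrays they were 5, 5 and 4 at the 3 BKM120 levels and 1 at BEZ235 IC50 (from 2). With 1 probe set a gene they were 1 at BKM120 IC90 (max) and 3 at GDC0941 IC50 (from 5), and between groups 2 for BEZ235 against GDC0941 at IC50 (from 4), 2 for BKM120 against GDC0941 at IC90 (from 5), 3 for BEZ235 against GDC0941 at IC90 (from 6) and 2 for BKM120 highest against lowest (from 4). With the mean over a gene's probe sets they were 1 at BKM120 IC30, 1 at BKM120 IC90 (max), 3 at GDC0941 IC50, 1 for BKM120 against BEZ235 at IC50 (from 4), 2 for BEZ235 against GDC0941 at IC50, 3 for BKM120 against GDC0941 at IC90, 1 for BKM120 and 2 for BEZ235 highest against lowest (from 4 each), and 31 of the wider list at BKM120 IC90 (max). In that setting SMAD3 at BEZ235 max was -0.16 (adjusted p = 0.0159) against 0.03. These gene-level settings test fewer rows by construction. With only the arrays of the 2 groups they were 4 at BKM120 IC90 (max), 0 at BEZ235 IC50, 0 for BKM120 against BEZ235 and 0 for BEZ235 against GDC0941 at IC50, 9 for BKM120 against GDC0941 at IC90, 1 for BEZ235 highest against lowest, and 11 of the wider list at BEZ235 IC50 (from 27). For the other settings the cause was not tested.
Leaving out 1 array at a time gave 1 to 4 at BKM120 IC30, 1 to 3 at BKM120 IC50, 1 to 2 at BEZ235 IC50, 3 to 5 at BEZ235 max (from 6, with 3 without BEZ235 max replicate 4), 3 to 5 at GDC0941 IC50, 2 to 5 for BKM120 against BEZ235 and 3 to 7 for BEZ235 against GDC0941 at IC50 (7 without BEZ235 IC50 replicate 2), 2 to 5 for BKM120 and 2 to 4 for GDC0941 highest against lowest.
Of 963 single-gene values under other settings, 917 kept their side of the threshold, 14 lost a call, 31 gained one and 1 turned. Of 720 with 1 array left out, 677 kept it, 39 lost a call and 4 gained one. With 4 arrays a group, and dim probe sets such as those of TGFB2 and SMAD6 near the filter, small changes may go uncalled.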
